A study of Mus musculus with 20 samples.

Results

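Glucocorticoid-induced genes that serve in many tissues as a readout of glucocorticoid receptor activity were followed in the mouse heart, to ask which of them keep a difference between morning and evening when cardiomyocytes lose the receptor. The 10 genes are Fkbp5, Tsc22d3, Zbtb16, Sgk1, Arrdc2, Hif3a, Map3k6, Fam107a, Errfi1 and Ddit4. They were picked by symbol, and all 10 were found among the 24059 genes counted and were abundant enough to be among the 14007 genes tested. The libraries are bulk RNA-seq of the left ventricular free wall of adult male C57BL/6 mice of about 9 to 13 weeks. GRflox mice carry floxed alleles of Nr3c1, the gene of the glucocorticoid receptor, and no Cre. CardioGRKO mice, their littermates, carry the same GRfl/fl alleles with alphaMHCCre/+, a Cre recombinase under the alpha myosin heavy chain promoter that acts in cardiomyocytes. All groups therefore share the floxed alleles, and the effect of Cre itself and of receptor loss cannot be told apart. Hearts of each genotype were taken at ZT0 (lights on) and at ZT12 (lights off), with 5 libraries in each of the 4 groups.

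The glucocorticoid receptor is a ligand-activated transcription factor. Bound by hormone (corticosterone in mice), it leaves its chaperone complex, enters the nucleus and binds short palindromic DNA elements near its target genes. Corticosterone in nocturnal mice peaks around the start of the dark phase, so genes driven by the receptor are usually higher at lights off than at lights on. The heart also has its own molecular clock, a loop of transcription factors that drives daily rhythms in many cardiac genes. A left ventricle holds endothelial cells, fibroblasts, mural cells and macrophages beside cardiomyocytes, and in CardioGRKO hearts those cells keep the receptor.

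The promoter sequences, read from RefSeq (GRCm38.p6, the assembly also called mm10), are shown first because the receptor's own element can be looked for in them. The table holds windows of 300 bases, from 250 before to 50 after an annotated start, for 9 of the 10 genes (19 windows), with none for Zbtb16. Each window was searched on both strands. The full palindrome of the receptor's element, AGAACA and TGTTCT with any 3 bases between them, was present in 3 of 32851 windows of all genes (0.00913%), and 1 of these 3 belongs to Sgk1, at -189 to -175 from one of its 6 annotated starts. The looser core ACANNNTGT, which lies within the palindrome, was present in 6.85% of all windows and in 5 of the 19 windows, of Sgk1, Map3k6 and Fam107a. These windows are not independent: those of Fam107a with a match overlap and hold the same one, and Sgk1 has 6 of the 19. By gene, 3 of the 9 had a match, beside 7.9% of all genes. The clock element CACGTG (E-box) was present in 7.15% of all windows and in 2 of the 19, that of Fkbp5 and 1 of the 6 of Sgk1. The D-box forms TTATGTAA (0.938% of all windows) and TTACGTAA (0.119%) and the ROR element, AGGTCA directly after AANT (0.219%), were found in none of the 19. The windows below carry the Sgk1 palindrome, a looser core or an E-box in capitals, and that of Arrdc2 is shown as one with no match. They are written 5′ to 3′ on the strand of the gene. A match describes letters and does not show binding, and elements outside these windows were not looked for.
Sgk1, chr10:21993640-21993939, plus strand: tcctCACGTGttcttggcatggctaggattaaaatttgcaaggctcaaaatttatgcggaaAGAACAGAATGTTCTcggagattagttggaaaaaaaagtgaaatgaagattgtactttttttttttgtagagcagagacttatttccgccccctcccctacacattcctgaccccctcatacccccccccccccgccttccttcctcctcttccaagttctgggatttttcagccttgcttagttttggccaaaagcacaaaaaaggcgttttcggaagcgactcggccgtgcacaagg
Fkbp5, chr17:28486100-28486399, minus strand: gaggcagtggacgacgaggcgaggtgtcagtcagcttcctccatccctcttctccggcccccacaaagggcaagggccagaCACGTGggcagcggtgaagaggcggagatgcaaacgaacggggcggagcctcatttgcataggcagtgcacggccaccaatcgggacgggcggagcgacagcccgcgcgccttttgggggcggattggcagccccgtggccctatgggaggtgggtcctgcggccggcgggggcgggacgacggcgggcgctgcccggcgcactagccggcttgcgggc
Map3k6, chr4:133240568-133240867, plus strand: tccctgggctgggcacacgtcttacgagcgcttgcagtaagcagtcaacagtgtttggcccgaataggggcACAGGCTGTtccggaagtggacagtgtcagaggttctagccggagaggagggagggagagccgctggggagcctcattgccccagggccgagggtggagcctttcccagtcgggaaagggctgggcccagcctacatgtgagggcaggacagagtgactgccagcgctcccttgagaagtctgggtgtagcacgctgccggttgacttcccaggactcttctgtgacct
Fam107a, chr14:8309730-8310029, minus strand: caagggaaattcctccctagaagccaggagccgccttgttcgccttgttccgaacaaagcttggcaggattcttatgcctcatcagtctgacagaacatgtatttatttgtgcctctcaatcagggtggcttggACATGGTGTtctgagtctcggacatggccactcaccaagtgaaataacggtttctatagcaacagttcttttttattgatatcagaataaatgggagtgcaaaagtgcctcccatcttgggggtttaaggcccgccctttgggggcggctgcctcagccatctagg
Arrdc2, chr8:70839671-70839970, minus strand: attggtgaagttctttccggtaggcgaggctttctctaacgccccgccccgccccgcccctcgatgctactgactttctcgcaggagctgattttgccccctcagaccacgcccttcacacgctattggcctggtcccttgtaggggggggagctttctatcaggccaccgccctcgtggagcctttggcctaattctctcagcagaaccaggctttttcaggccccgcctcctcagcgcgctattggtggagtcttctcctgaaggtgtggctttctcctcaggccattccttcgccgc

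Libraries held between 5854462 and 37648421 counted reads, with a median of 23223656. The targeted gene matched its labels: Nr3c1 stood at 115 ± 6.11 CPM (counts of the gene relative to the library's total, scaled by TMM; mean ± SD, n = 5) in GRflox at ZT0 and 107 ± 7.98 at ZT12, against 55.2 ± 3.51 and 51.0 ± 3.5 in CardioGRKO, with no overlap. Summed over 10 cardiomyocyte markers, the level ran from 110442 to 120131 CPM in GRflox and from 97067.5 to 111325 in CardioGRKO, and 5 of the 10 were lower in CardioGRKO at ZT0 and 8 at ZT12. Of 10 endothelial markers, 6 were lower at ZT12 in GRflox and 5 in CardioGRKO, and 5 and 4 were lower in CardioGRKO at ZT0 and at ZT12. Of 8 fibroblast markers 2 were lower at ZT12 in GRflox and 1 was higher in CardioGRKO at ZT12, and of 8 pericyte and smooth muscle markers 2 were higher at ZT12 in CardioGRKO, 1 was higher and 3 lower in CardioGRKO at ZT0, and 1 higher and 1 lower at ZT12. Of 8 macrophage markers 1 was higher at ZT12 in GRflox. Of 4 tested adipocyte markers 1 was higher at ZT12 in GRflox, 1 was higher in CardioGRKO at ZT0, and 1 was higher and 1 lower at ZT12, and of 3 tested lymphocyte markers 1 was lower at ZT12 in each genotype. No nerve or Schwann cell marker (of 5) and no red blood cell marker (1 tested of 5, the other 4 with no count in any group) passed in edgeR. Of all tested genes, 8.13% were higher and 9.17% lower at ZT12 in GRflox, and 4.42% and 4.75% in CardioGRKO. Between genotypes, 7.36% were higher and 7.35% lower in CardioGRKO at ZT0, and 10.4% and 10.7% at ZT12. No cardiomyocyte, endothelial, fibroblast, mural or macrophage marker was at 0 in any group. In bulk tissue, fewer cells of a type and less RNA per cell cannot be told apart. The labels do not tie libraries to single animals, so the p-values measure the spread between these libraries.

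In GRflox hearts, 7 of the 10 genes were higher at ZT12 than at ZT0 (8.13% of all tested genes were), and 1, Errfi1, was lower (9.17% of all tested genes). In CardioGRKO hearts, 6 of those 7 were again higher at ZT12 (4.42% of all tested genes) and Errfi1 was again lower (4.75%). Fkbp5, Tsc22d3, Zbtb16, Hif3a, Map3k6 and Fam107a thus passed the test in both genotypes, as did 3.06% of all tested genes. Of all genes higher at ZT12 in GRflox, 37.7% (429 of 1139) were also called higher in CardioGRKO, beside 6 of 7 here. Of all genes lower at ZT12 in GRflox, 41.1% (528 of 1284) were also called lower in CardioGRKO, beside 1 of 1 here, and 3.77% of all tested genes were lower in both. Arrdc2 passed in GRflox and not in CardioGRKO, and Sgk1 and Ddit4 passed in neither. A test of the difference between the time effects called 1 of the 10, Zbtb16, with a smaller rise in CardioGRKO (0.121% of all tested genes were called in that direction). Calls here are an adjusted p under 0.05 in the quasi-likelihood F-test of edgeR, with Benjamini-Hochberg adjustment over the 14007 tested genes, and fold changes are on the log2 scale with their standard error. The median time difference over the 10 genes was 1.46 in GRflox and 0.86 in CardioGRKO (log2), beside 0.01 and 0.00 over all tested genes.

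**Figure D1:**
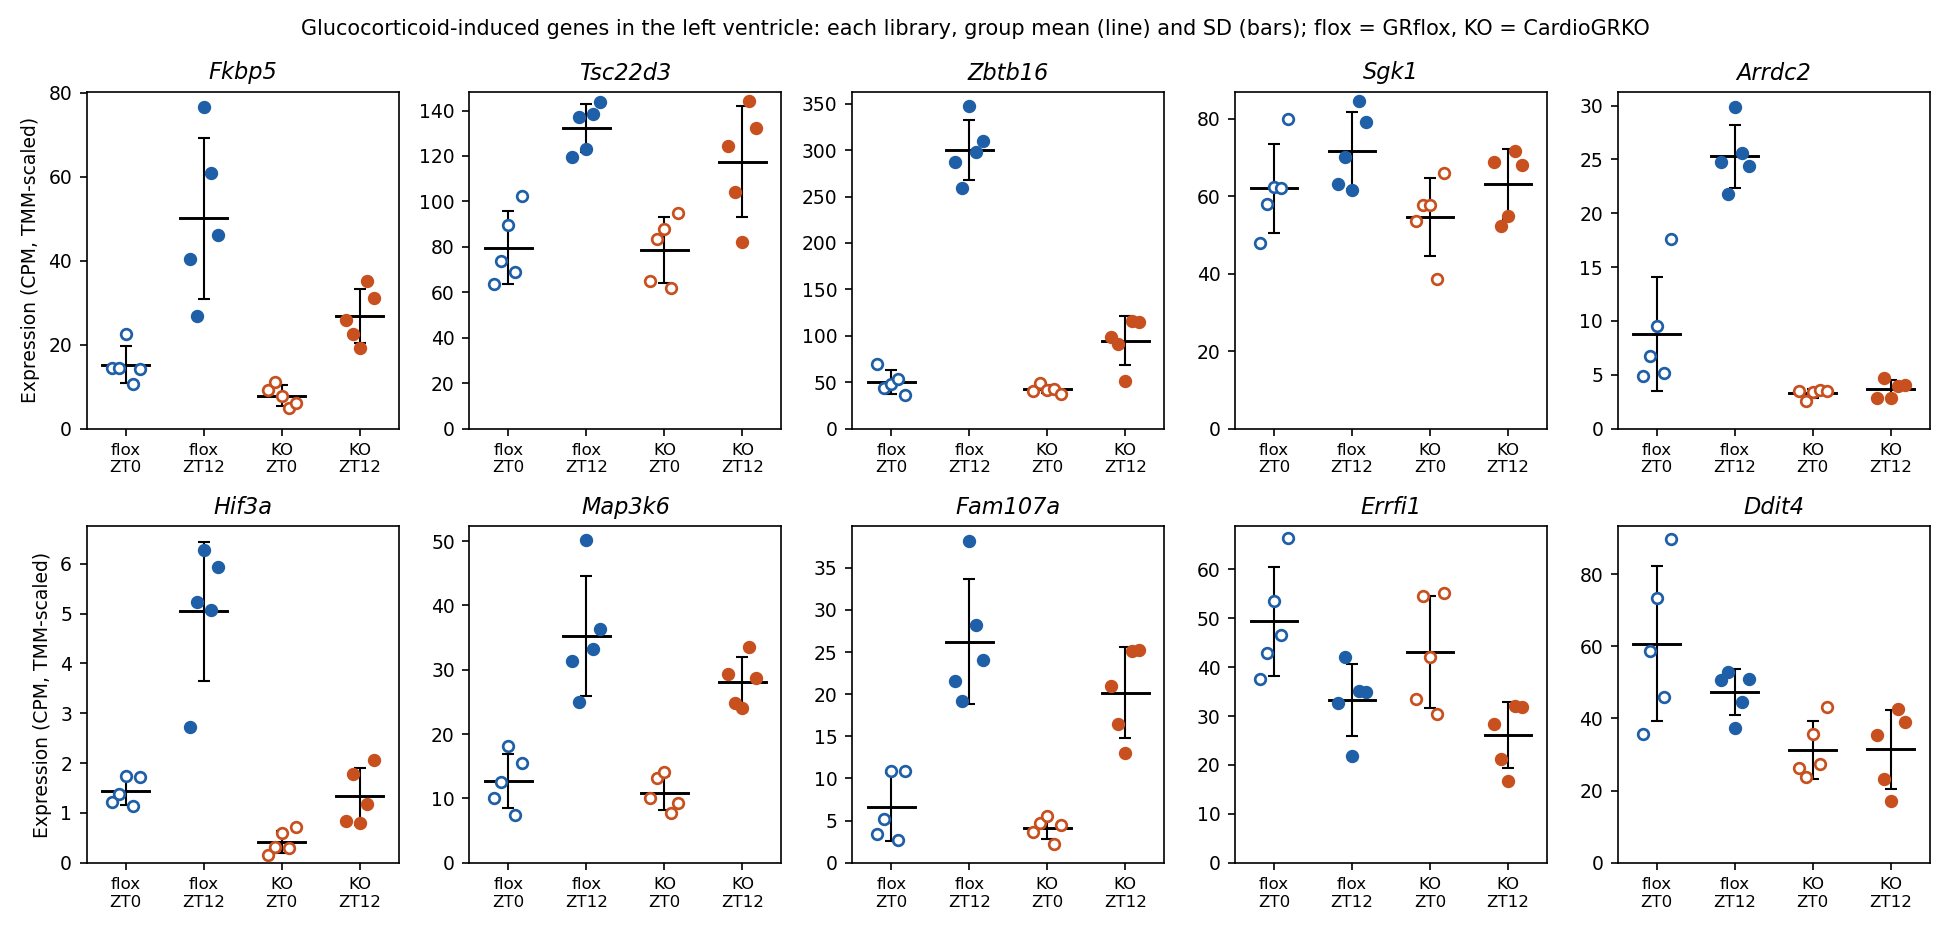
Level of each of the 10 genes in every library, in TMM-scaled CPM on a linear axis from 0, for GRflox (flox) and CardioGRKO (KO) at ZT0 and ZT12; points are libraries, lines the mean of 5 and bars the SD. Fkbp5, Zbtb16, Hif3a, Map3k6 and Fam107a separate by time in both genotypes. For Zbtb16, Arrdc2 and Hif3a, GRflox at ZT12 separates from all other groups. Arrdc2 lies below 5 CPM in every CardioGRKO library.

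Fkbp5 encodes FKBP51, a co-chaperone that lowers the receptor's affinity for hormone and closes a short feedback loop on it. The gene (Entrez 14229) lies on chromosome 17 at 28398753 to 28486149 of mm10. In GRflox the 5 libraries held 14.5, 14.4, 22.5, 10.6 and 14.2 CPM at ZT0 and 40.3, 26.7, 76.6, 60.8 and 46.1 CPM at ZT12. The CardioGRKO libraries held 9.22, 11.1, 7.82, 5.0 and 6.10 CPM at ZT0 and 25.8, 22.6, 19.2, 35.0 and 31.1 CPM at ZT12. Within each genotype every ZT12 library was above every ZT0 library, while the genotypes overlapped at both times. The rise was 1.70 ± 0.24 on the log2 scale in GRflox (3.25-fold, edgeR adjusted p = 1.56e-05) and 1.76 ± 0.26 in CardioGRKO (3.40-fold, edgeR adjusted p = 7.77e-05). The difference between these rises was 0.06, with a 95% interval from -0.67 to 0.79. Fkbp5 was lower in CardioGRKO at both times, with log2 differences of -0.97 ± 0.27 at ZT0 (edgeR adjusted p = 0.0164) and -0.91 ± 0.23 at ZT12 (edgeR adjusted p = 0.00531). The call at ZT0 was lost without replicate 3 of GRflox at ZT0 (edgeR adjusted p = 0.0627), without replicate 4 of CardioGRKO at ZT0 (0.0628), and with all libraries thinned to the depth of the shallowest (0.0955).

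Among the transcriptional regulators, Tsc22d3 encodes GILZ, a leucine zipper protein that restrains NF-kappaB and AP-1 and carries much of the anti-inflammatory action of glucocorticoids. It lies on the X chromosome at 140539528 to 140600522 (Entrez 14605). It was higher at ZT12 in both genotypes, with no called genotype difference. Its libraries ranged from 63.7 to 102 CPM in GRflox at ZT0, from 119 to 144 in GRflox at ZT12, from 61.7 to 94.8 in CardioGRKO at ZT0 and from 82.3 to 144 in CardioGRKO at ZT12. The times separated in GRflox and overlapped in CardioGRKO, where replicate 3 at ZT12 (82.3 CPM) lay among the ZT0 libraries. Tsc22d3 rose by 0.73 ± 0.14 in GRflox (1.65-fold, edgeR adjusted p = 5.80e-04) and by 0.58 ± 0.14 in CardioGRKO (1.49-fold, edgeR adjusted p = 0.00939). The genotype difference was -0.02 at ZT0 (95% interval -0.31 to 0.27) and -0.17 at ZT12 (-0.45 to 0.11), and neither passed (edgeR adjusted p = 0.954 and 0.420).

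Zbtb16 encodes PLZF, a zinc finger repressor of the BTB family and one of the most glucocorticoid-responsive transcripts in many tissues, and it lies on chromosome 9 at 48651797 to 48836225 (Entrez 235320). It had the largest time difference of the 10 genes in GRflox. There the libraries held 69.5, 43.4, 48.5, 53.8 and 36.03 CPM at ZT0 and 287, 259, 347, 298 and 310 CPM at ZT12. In CardioGRKO they held 40.8, 49.0, 41.9, 42.2 and 37.7 CPM at ZT0 and 98.9, 91.3, 51.2, 116 and 115 CPM at ZT12. The genotypes overlapped at ZT0, and at ZT12 every CardioGRKO library lay under every GRflox library, though still above every CardioGRKO library of ZT0. The rise was 2.59 ± 0.17 in GRflox (6.02-fold, edgeR adjusted p = 1.09e-10) and 1.15 ± 0.17 in CardioGRKO (2.21-fold, edgeR adjusted p = 7.02e-05). The rise was smaller in CardioGRKO by 1.44 ± 0.24 (95% interval of the difference -1.93 to -0.95, edgeR adjusted p = 0.00533). At ZT12 the genotype difference was -1.67 ± 0.16 (edgeR adjusted p = 6.54e-08), and at ZT0 it was -0.23 ± 0.17 and did not pass (edgeR adjusted p = 0.432).

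Hif3a encodes a hypoxia-inducible factor subunit whose shorter forms hold back the other HIF proteins. It lies on chromosome 7 at 17030993 to 17062427 (Entrez 53417) and was the least abundant of the 10. In GRflox the libraries held 1.22, 1.37, 1.75, 1.14 and 1.72 CPM at ZT0 and 2.72, 5.23, 6.27, 5.07 and 5.94 CPM at ZT12. In CardioGRKO they held 0.165, 0.315, 0.587, 0.303 and 0.708 CPM at ZT0, which rest on 1 to 13 counts, and 0.839, 1.78, 0.805, 1.17 and 2.06 CPM at ZT12. At each time every CardioGRKO library lay below every GRflox library, and within each genotype the times did not overlap. Hif3a was lower in CardioGRKO, with log2 differences of -1.85 ± 0.34 at ZT0 (edgeR adjusted p = 5.58e-04) and -1.98 ± 0.25 at ZT12 (edgeR adjusted p = 2.51e-06). It rose with time by 1.78 ± 0.24 in GRflox (3.43-fold, edgeR adjusted p = 1.23e-05) and by 1.64 ± 0.35 in CardioGRKO (3.13-fold, edgeR adjusted p = 0.00321). The interval of the difference between the rises was wide, from -1.12 to 0.86. With the same thinning, the time difference in CardioGRKO was 1.25 and no longer passed (edgeR adjusted p = 0.162), nor did the genotype difference at ZT0 (-1.34, edgeR adjusted p = 0.0884).

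Of the kinase genes, Sgk1 encodes a serum- and glucocorticoid-regulated kinase that acts on ion channels and cell survival, and Map3k6 encodes ASK2, a kinase at the head of stress-activated MAP kinase cascades. Sgk1 lies on chromosome 10 at 21882184 to 21999903 (Entrez 20393) and Map3k6 on chromosome 4 at 133237979 to 133252929 (Entrez 53608). Sgk1, which has the full palindrome in 1 of its 6 promoter windows, passed no test. Its libraries ranged from 47.9 to 79.9 CPM in GRflox at ZT0, 61.6 to 84.7 in GRflox at ZT12, 38.6 to 66.0 in CardioGRKO at ZT0 and 52.3 to 71.8 in CardioGRKO at ZT12, with overlap between every pair of groups. Its time difference was 0.20 ± 0.13 in GRflox (edgeR adjusted p = 0.327) and 0.22 ± 0.13 in CardioGRKO (edgeR adjusted p = 0.359). Its genotype differences were -0.20 ± 0.13 at ZT0 and -0.18 ± 0.13 at ZT12 (edgeR adjusted p = 0.371 at both).

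Map3k6 was higher at ZT12 in both genotypes, with no called genotype difference. In GRflox its libraries held 10.04, 12.6, 18.1, 7.5 and 15.5 CPM at ZT0 and 31.4, 25.0, 50.2, 33.3 and 36.4 CPM at ZT12. Those of CardioGRKO held 10.04, 13.2, 14.1, 7.79 and 9.29 CPM at ZT0 and 29.4, 24.9, 24.0, 33.5 and 28.7 CPM at ZT12. The ZT12 libraries of either genotype were above the ZT0 libraries of both. The rise was 1.44 ± 0.19 in GRflox (2.71-fold, edgeR adjusted p = 9.11e-06) and 1.35 ± 0.20 in CardioGRKO (2.55-fold, edgeR adjusted p = 7.51e-05), and the interval of their difference ran from -0.66 to 0.49. The genotype difference was -0.24 at ZT0 (95% interval -0.68 to 0.19) and -0.33 at ZT12 (-0.71 to 0.05), and neither passed (edgeR adjusted p = 0.496 and 0.217).

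Errfi1 and Ddit4 encode brakes on growth signalling. Errfi1 (MIG6) is a feedback inhibitor of the EGF receptor family, and Ddit4 (REDD1) restrains mTORC1. They lie on chromosome 4 at 150853796 to 150868889 (Entrez 74155) and on chromosome 10 at 59949675 to 59951770 (Entrez 74747). Neither was higher at ZT12. Errfi1 ranged from 37.5 to 66.3 CPM at ZT0 and from 21.8 to 42.1 at ZT12 in GRflox, and from 30.5 to 55.2 at ZT0 and from 16.8 to 32.1 at ZT12 in CardioGRKO, with the times overlapping in both. It fell by 0.58 ± 0.19 in GRflox (1.5-fold lower, edgeR adjusted p = 0.0389) and by 0.74 ± 0.20 in CardioGRKO (1.67-fold lower, edgeR adjusted p = 0.0182). Both calls are near the threshold. That in GRflox was lost without any 1 of 7 of the 10 GRflox libraries (replicates 3, 4 and 5 at ZT0 and 1, 3, 4 and 5 at ZT12; edgeR adjusted p from 0.0516 to 0.133). That in CardioGRKO was lost without replicate 2 (edgeR adjusted p = 0.0532) or 5 (0.0535) at ZT0. The genotype differences of Errfi1, -0.19 at ZT0 and -0.35 at ZT12, did not pass (edgeR adjusted p = 0.574 and 0.229).

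Ddit4 passed the test between genotypes at ZT0 and no test between times. In GRflox its libraries held 35.7, 58.6, 73.4, 46.0 and 89.6 CPM at ZT0 and 50.7, 52.8, 37.4, 44.7 and 50.9 CPM at ZT12. In CardioGRKO they held 26.2, 23.8, 35.6, 27.4 and 43.3 CPM at ZT0 and 35.3, 23.1, 17.1, 42.7 and 39.1 CPM at ZT12. At ZT0 the GRflox libraries spread widely, and the lowest of them (35.7 CPM) lay under the highest of CardioGRKO (43.3 CPM). Ddit4 was lower in CardioGRKO at ZT0, with a log2 difference of -0.98 ± 0.23 (edgeR adjusted p = 0.00496). At ZT12 the difference was -0.59 ± 0.23 and did not pass (edgeR adjusted p = 0.0702). This call lies near the threshold: it passed without replicate 1 of GRflox at ZT0 (edgeR adjusted p = 0.0486) or replicate 4 of CardioGRKO at ZT12 (0.0338). The time difference was -0.37 ± 0.22 in GRflox (edgeR adjusted p = 0.274) and 0.02 ± 0.23 in CardioGRKO (edgeR adjusted p = 0.981).

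Arrdc2 encodes an alpha-arrestin, a family of adaptors that sort membrane proteins, and lies on chromosome 8 at 70835129 to 70839720 (Entrez 70807). Its genotype difference at ZT12 was the largest among the 10. In GRflox its libraries held 4.89, 6.74, 9.53, 5.14 and 17.6 CPM at ZT0 and 24.8, 21.8, 29.9, 25.6 and 24.4 CPM at ZT12. The 10 CardioGRKO libraries held 3.46, 2.57, 3.39, 3.61 and 3.45 CPM at ZT0 and 2.87, 4.73, 2.84, 3.94 and 4.0 CPM at ZT12. Every CardioGRKO library at either time was below every GRflox library, and the CardioGRKO times overlapped. Arrdc2 rose with time in GRflox by 1.48 ± 0.23 (2.79-fold, edgeR adjusted p = 4.83e-05), while in CardioGRKO the difference was 0.17 ± 0.29 (1.13-fold) and did not pass (edgeR adjusted p = 0.799). The difference between these time effects, -1.31 ± 0.37 with a 95% interval from -2.07 to -0.54, had an unadjusted p of 0.00182 and did not pass after adjustment (edgeR adjusted p = 0.262). It passed without replicate 5 of GRflox at ZT0, the library at 17.6 CPM (-1.74, edgeR adjusted p = 9.45e-04). Arrdc2 was lower in CardioGRKO, with log2 differences of -1.49 ± 0.27 at ZT0 (edgeR adjusted p = 4.38e-04) and -2.80 ± 0.25 at ZT12 (edgeR adjusted p = 1.50e-08).

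Fam107a encodes an actin-associated protein that rises with stress and glucocorticoids in brain, and lies on chromosome 14 at 8296270 to 8317607 (Entrez 268709). Its time difference in CardioGRKO was the largest of the 10. In GRflox the libraries held 3.41, 5.2, 10.9, 2.71 and 10.9 CPM at ZT0 and 21.5, 19.2, 38.1, 28.2 and 24.1 CPM at ZT12. In CardioGRKO they held 3.62, 4.77, 5.51, 2.24 and 4.51 CPM at ZT0 and 20.9, 16.5, 13.0, 25.1 and 25.3 CPM at ZT12. As for Map3k6, the ZT12 libraries of both genotypes lay above all ZT0 libraries. Fam107a rose by 1.92 ± 0.29 in GRflox (3.77-fold, edgeR adjusted p = 3.97e-05) and by 2.29 ± 0.32 in CardioGRKO (4.88-fold, edgeR adjusted p = 3.41e-05), and the interval of the difference ran from -0.52 to 1.26. The genotype difference was -0.76 ± 0.34 at ZT0 and -0.39 ± 0.27 at ZT12, and neither passed (edgeR adjusted p = 0.142 and 0.332).

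**Figure D2:**
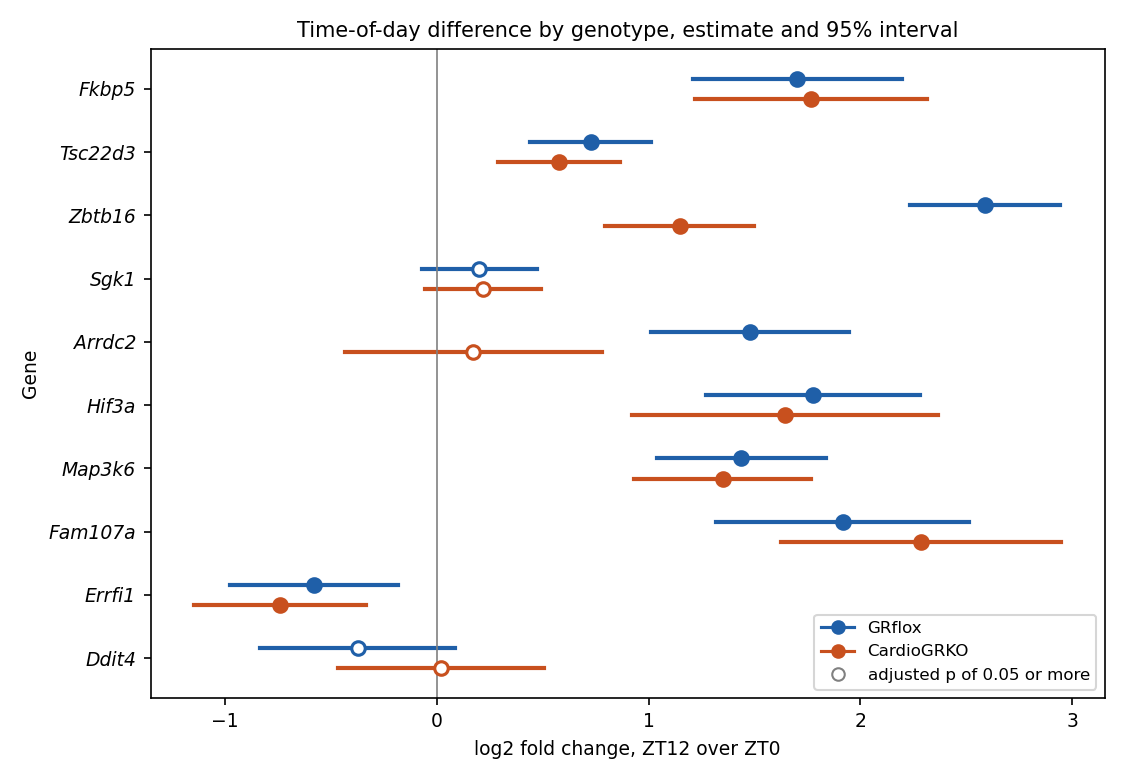
Difference between ZT12 and ZT0 for each gene on the log2 scale in GRflox and in CardioGRKO; points are the fitted differences and bars the 95% intervals. The intervals of the 2 genotypes are apart for Zbtb16 (2.59 and 1.15) and Arrdc2 (1.48 and 0.17), of which the first passed the test of the difference.

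The 95% interval of the difference between the time effects of the genotypes included 0 for 8 of the 10 genes. For Tsc22d3 the difference of the time effects was -0.15 (95% interval -0.56 to 0.26), for Sgk1 0.02 (-0.37 to 0.40), for Errfi1 -0.16 (-0.73 to 0.41) and for Ddit4 0.39 (-0.27 to 1.06). A p above the threshold does not show that the time effects of these genes are equal. No gene had a called difference in the positive direction in edgeR, by its unadjusted p under 0.05 or in DESeq2 (0 of 10 in each, beside 0.0643% of all tested genes by edgeR's adjusted p and 3.31% by its unadjusted p). By unadjusted p under 0.05, 2 of the 10, Zbtb16 and Arrdc2, had a smaller time effect in CardioGRKO, beside 2.68% of all tested genes.

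Between genotypes, all called differences were lower levels in CardioGRKO. At ZT0 these were Fkbp5, Arrdc2, Hif3a and Ddit4 (4 of 10, beside 7.35% of all tested genes), and at ZT12 Fkbp5, Zbtb16, Arrdc2 and Hif3a (4 of 10, beside 10.7%). None of the 10 was called higher in CardioGRKO at either time in edgeR, by unadjusted p under 0.05 or in DESeq2 (0 of 10 each). Over all tested genes, edgeR called 7.36% higher at ZT0 and 10.4% at ZT12 by adjusted p, and 13.6% and 16.4% by unadjusted p. By unadjusted p, 5 of the 10 were lower at ZT0 (14.1% of all tested genes) and 5 at ZT12 (16.2%), with Fam107a added at ZT0 and Ddit4 at ZT12. The median genotype difference of the 10 was -0.50 at ZT0 and -0.49 at ZT12 (log2), beside -0.01 and 0.00 over all tested genes. Separation of single libraries was rarer: at ZT0 no library overlapped between genotypes for 2 genes (5.99% of all tested genes were lower without overlap) and at ZT12 for 3 (7.22%). For time the same count was 7 in GRflox (5.93%) and 5 in CardioGRKO (3.51%), all higher at ZT12. The list of cardiomyocyte markers had a median genotype difference of -0.12 at ZT0 and -0.20 at ZT12, and the endothelial list had medians of -0.18 and -0.21 between genotypes, -0.19 between times in GRflox and -0.17 in CardioGRKO. The part of these markers in the results was not tested.

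**Figure D3:**
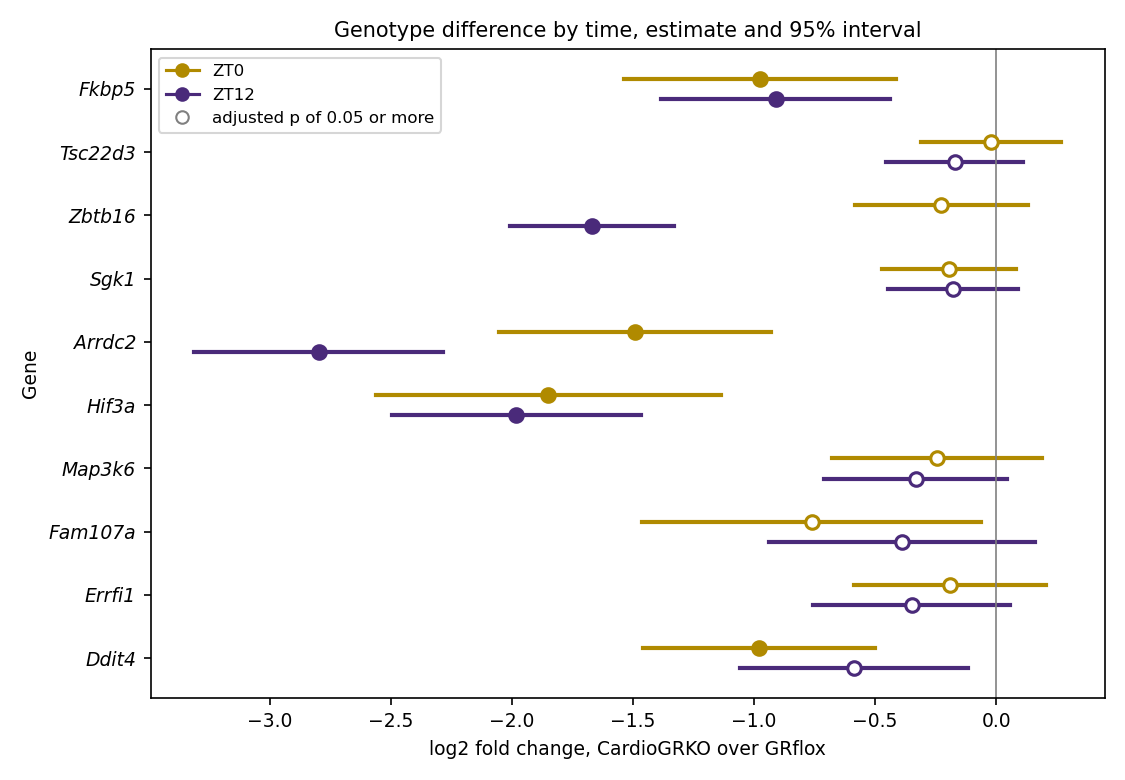
Difference between CardioGRKO and GRflox for each gene on the log2 scale at ZT0 and at ZT12; points are fitted differences and bars 95% intervals. Fkbp5, Arrdc2 and Hif3a passed the test at both times, Ddit4 at ZT0, Zbtb16 at ZT12, and Tsc22d3, Sgk1, Map3k6, Fam107a and Errfi1 at neither time.

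The 10 genes fall into 4 orders of group means. Fkbp5, Tsc22d3, Zbtb16, Sgk1, Map3k6 and Fam107a were highest in GRflox at ZT12, then in CardioGRKO at ZT12, GRflox at ZT0 and CardioGRKO at ZT0. Within that order all neighbours overlapped for Fkbp5, Tsc22d3 and Sgk1. For Zbtb16 GRflox at ZT12 did not overlap with its neighbour, and for Map3k6 and Fam107a CardioGRKO at ZT12 did not overlap with GRflox at ZT0. For Arrdc2 and Hif3a the genotype came first: both GRflox groups had higher means than both CardioGRKO groups, although Hif3a in CardioGRKO at ZT12 overlapped with GRflox at ZT0. Errfi1 ran from GRflox at ZT0 through CardioGRKO at ZT0 and GRflox at ZT12 to CardioGRKO at ZT12, with all neighbours overlapping. Ddit4 ran from GRflox at ZT0 through GRflox at ZT12 and CardioGRKO at ZT12 to CardioGRKO at ZT0, also with all neighbours overlapping. Levels were also set per kilobase of merged exon, the union of all exons annotated for the gene in GENCODE. Which transcripts gave the reads was not determined, so the order of genes on this scale is approximate. On that scale Zbtb16 was the highest in GRflox at ZT12 at 56.9 CPM per kb, followed by Tsc22d3 at 30.5 and Ddit4 at 27.0, and Hif3a was the lowest at 0.752. At ZT0 in GRflox the highest was Ddit4 at 34.6 CPM per kb, followed by Tsc22d3 at 18.3.

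Within groups, several of the 10 genes also varied together from library to library. After each group's mean was removed from log2 CPM, 43 of 45 pairs of the 10 genes had a positive Pearson r over the 20 libraries, with a median of 0.42 and a range from -0.25 to 0.91. By permutation of libraries within groups (100000 permutations, 2-sided, adjusted over the 45 pairs), 15 pairs passed by Pearson's r and 13 by Spearman's rho. Pairs of other genes were not counted in this way, so whether these counts are particular to the 10 genes was not tested. The closest pair was Map3k6 and Fam107a (r = 0.91, rho = 0.90, permutation adjusted p = 2.25e-04 for r). Without the 2 libraries farthest from the median in Map3k6, r was 0.86. Fkbp5 went with both of them, at r = 0.81 with Map3k6 and 0.70 with Fam107a. All pairs of Tsc22d3, Sgk1, Errfi1 and Ddit4 also passed: r was 0.88 for Tsc22d3 with Errfi1, 0.87 with Ddit4 and 0.84 with Sgk1, 0.81 for Sgk1 with Errfi1, 0.77 for Errfi1 with Ddit4 and 0.69 for Sgk1 with Ddit4. Fam107a also passed by Pearson's r with 3 of these, at r = 0.77 with Tsc22d3, 0.63 with Ddit4 and 0.60 with Sgk1. The last was 0.44 without the 2 libraries farthest from the median in Sgk1. The pair with Ddit4 did not pass by Spearman's rho (permutation adjusted p = 0.0506). The remaining pairs that passed by Pearson's r were Hif3a with Tsc22d3 (0.59), Fam107a (0.48) and Arrdc2 (0.42). By Spearman's rho, Hif3a passed with Fam107a but not with Tsc22d3 or Arrdc2 (permutation adjusted p = 0.0518 and 0.0587). Tsc22d3 with Map3k6 passed by Spearman's rho only (permutation adjusted p = 0.0355). Zbtb16 passed with none, and its highest r was 0.45, with Fkbp5. The summed level of 12 immediate early and handling-stress genes, which respond within minutes to dissection and stress, ran from 254 to 590 CPM over the 20 libraries. Of those 12 genes, 1 was higher and 1 lower at ZT12 in GRflox (8.13% and 9.17% of all tested genes). In CardioGRKO 1 was higher at ZT12 (4.42%). The part of handling, depth scaling and hour of sampling in this covariation was not tested.

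**Figure D4:**
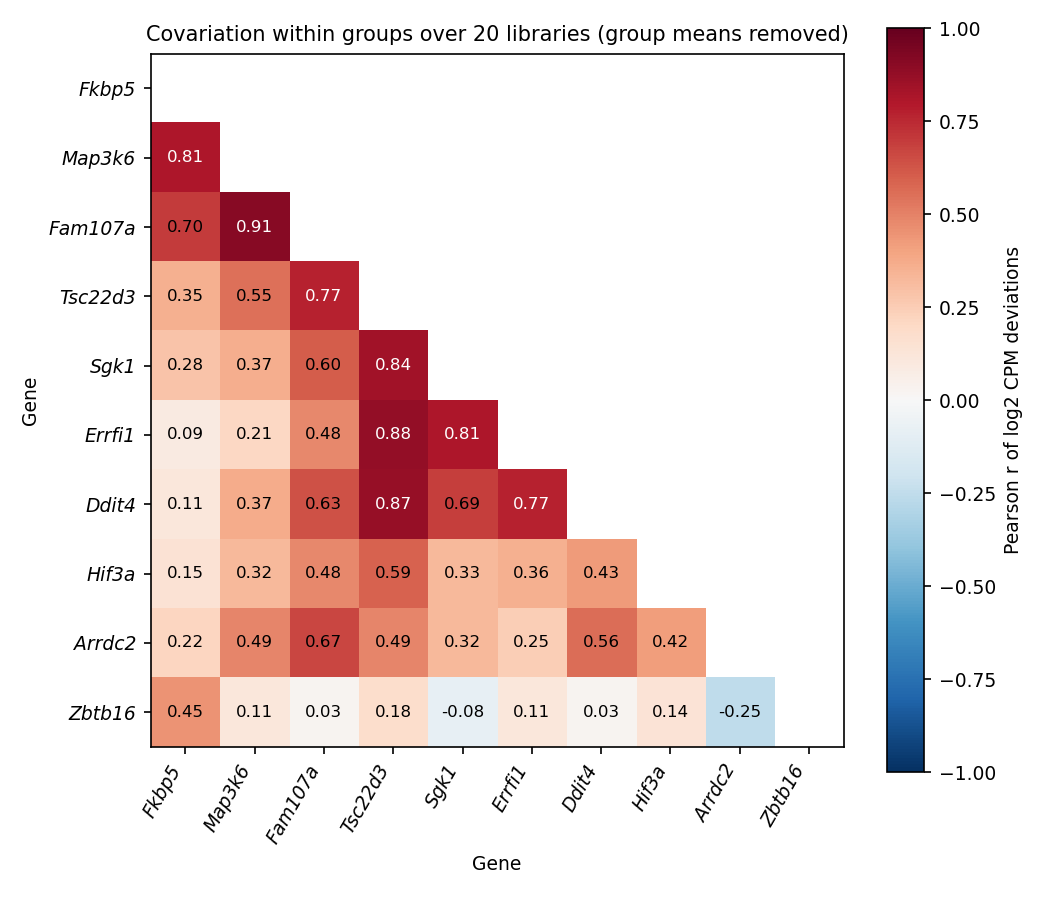
Pearson r of log2 CPM, after removal of group means, for each pair of the 10 genes over 20 libraries. The order of genes was chosen after the values were seen; values reach 0.91 among Fkbp5, Map3k6 and Fam107a and 0.88 among Tsc22d3, Sgk1, Errfi1 and Ddit4, Fam107a with Tsc22d3 stands at 0.77, and the row of Zbtb16 stays at or under 0.45.

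Over all 20 libraries, group differences included, each gene was set beside the tested genes whose log2 CPM followed it most closely, as a description (Pearson r, n = 20 libraries that share scaling and groups). Zbtb16 was closest to Cipc (r = 0.948), which encodes a repressor of the clock protein CLOCK, then to Rasal2 and Foxo3. Fkbp5 was closest to Rasal2 (0.949), Plcb4 and Fgfr3. Tsc22d3 was closest to Cdc42ep4 (0.937), the clock repressor Per1 (0.929) and Stc1. Arrdc2 was closest to the proline dehydrogenase gene Prodh (0.955), then to Lrrc58 and to Klf15 (0.943), a cardiac metabolic transcription factor. Hif3a was closest to Klf9 (0.962), then to Fry and Klf13. Map3k6 was closest to Timp4 (0.962), Fam117b and Mcf2l, and Fam107a to Fam117b (0.972), Cdc42ep4 and Timp3. The remaining genes had looser neighbours: Sgk1 Stc1 (0.888), Shroom4 and Cebpd, Ddit4 Irf2bp2 (0.885), Slc45a3 and S1pr1, and Errfi1 Rassf2 (0.853), Tcf12 and Fgd4.

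A wider list of 30 other glucocorticoid-induced genes, of which 28 were tested, was set beside the 10. In GRflox 14 were higher and 2 lower at ZT12 (8.13% and 9.17% of all tested genes), with a median of 0.42. The count of lower genes was 4 without replicate 5 of GRflox at ZT12 and 1 with thinning. In CardioGRKO 6 were higher and 2 lower (4.42% and 4.75% of all tested genes), with a median of 0.14. The test of the difference between time effects called 2, both smaller in CardioGRKO (0.121% of all tested genes were called in that direction). These were Pik3r1, the regulatory subunit of PI3-kinase, and Glul, glutamine synthetase. Pik3r1 stood at 185 ± 10.7 CPM in GRflox at ZT0 and 396 ± 64.9 at ZT12, and at 116 ± 7.33 and 129 ± 12.7 in CardioGRKO (mean ± SD, n = 5), a difference in log2 time effects of -0.94 ± 0.12 (edgeR adjusted p = 4.32e-04). Glul stood at 542 ± 59.6 and 1123 ± 79.2 CPM in GRflox and at 645 ± 76.7 and 856 ± 58.4 in CardioGRKO, a difference of -0.64 ± 0.11 (edgeR adjusted p = 0.00608). The largest rises in GRflox were those of the metallothionein Mt2 (2.54 ± 0.38), Cebpb (1.55 ± 0.24) and Per1 (1.5 ± 0.27), and Cdkn1a, the cell cycle inhibitor p21, fell by 1.45 ± 0.26. In CardioGRKO Mt2 (1.58 ± 0.46), Per1 (1.28 ± 0.28) and Mt1 (0.57 ± 0.15) rose and Cdkn1a fell by 1.02 ± 0.25. The call of Mt2 in CardioGRKO was lost without replicate 3, 4 or 5 at ZT0 or 1 or 3 at ZT12 (edgeR adjusted p from 0.0633 to 0.087) and that of Mt1 without replicate 4 or 5 at ZT0 (0.0574 and 0.0613), and thinning left 3 genes of the list called higher in CardioGRKO. Between genotypes 8 were lower and 1 higher in CardioGRKO at ZT0 (7.35% and 7.36% of all tested genes), and 13 were lower at ZT12 (10.7%). The prostaglandin D synthase gene Ptgds was lowest relative to GRflox, at 32.3 ± 12.8 against 121 ± 30.7 CPM at ZT0 (-1.95 ± 0.26) and 35.1 ± 7.05 against 244 ± 93.2 CPM at ZT12 (-2.79 ± 0.25), followed by Lcn2 (-1.39 ± 0.35 and -2.22 ± 0.30), whose call at ZT0 was lost with thinning (edgeR adjusted p = 0.0942). Pik3r1 was lower by log2 differences of -0.67 ± 0.09 at ZT0 and -1.62 ± 0.09 at ZT12, Mt1 by -0.78 ± 0.15 at ZT0 and Mt2 by -1.81 ± 0.36 at ZT12.

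**Figure D5:**
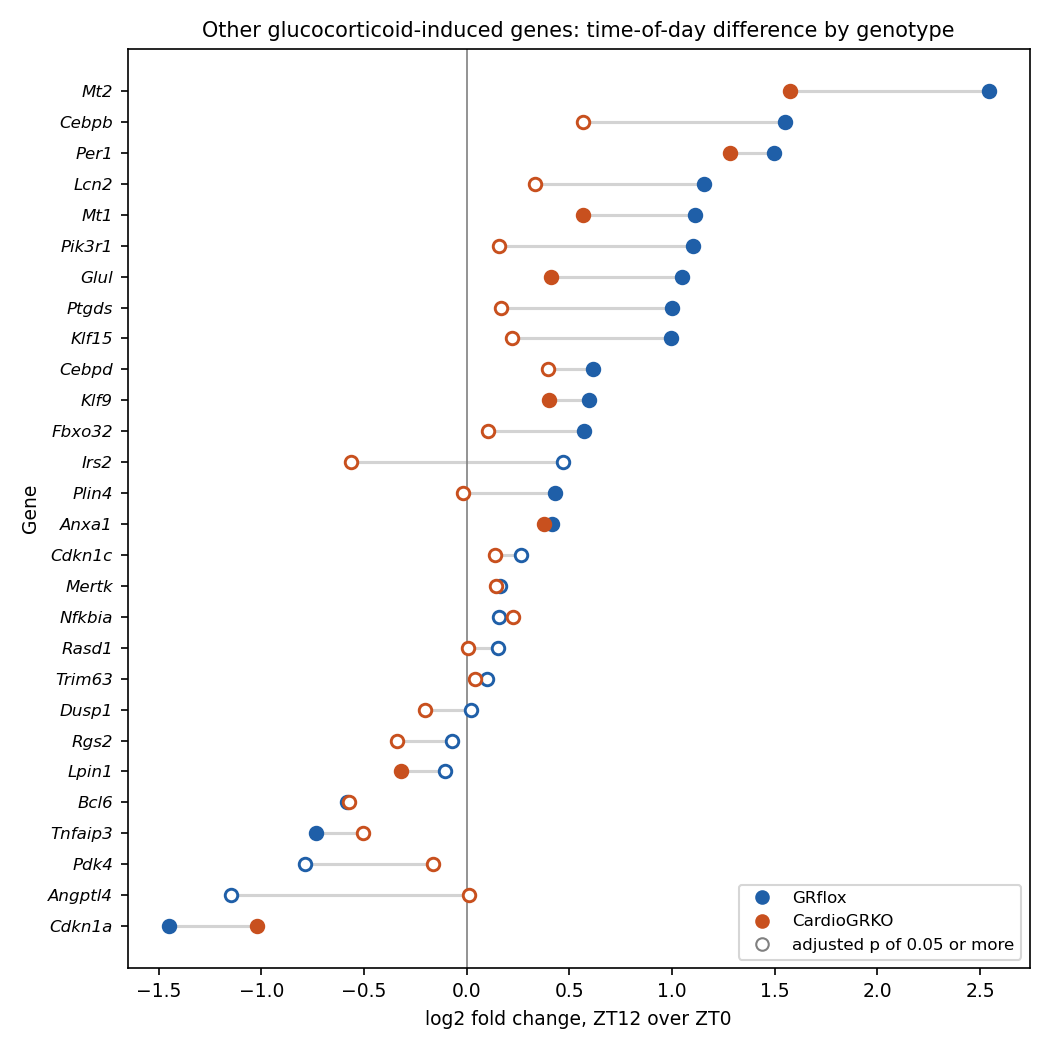
Difference between ZT12 and ZT0 on the log2 scale for the 28 tested genes of the wider list, in GRflox and in CardioGRKO; filled points passed the test between times and open points did not, and genes are ordered by the GRflox difference. Pik3r1 and Glul are the genes of this list whose time effect was called different between genotypes.

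Of 16 core clock genes, 10 were higher and 4 lower at ZT12 in GRflox (8.13% and 9.17% of all tested genes). In CardioGRKO 11 were higher and 4 lower (4.42% and 4.75%), so most of the clock list differed by time in both genotypes. The time effect was called more positive in CardioGRKO for 1 of the 16 and more negative for 3 (0.0643% and 0.121% of all tested genes). The 1 fell at ZT12 and the 3 rose in both genotypes, so each of these time differences was smaller in CardioGRKO. Between genotypes, 4 were higher and 4 lower in CardioGRKO at ZT0 (7.36% and 7.35%). At ZT12, 2 were higher and 5 lower (10.4% and 10.7%). Per1 is in the clock list and in the wider list. Of 9 tested genes of the glucocorticoid and mineralocorticoid receptors, their chaperones and coactivators and the hormone-activating enzyme gene Hsd11b1, 1 (Nr3c1) was lower in CardioGRKO at either time and 1, the coactivator gene Ncoa1, was lower at ZT12 in each genotype.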

How the data were processed

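The authors deposited 1 table of raw read counts by gene for each library. Per the labels' protocols, hearts were perfused with Tyrode solution and poly(A) libraries (TruSeq) were read in pairs of 75 bases on a NovaSeq. Per the submitters' processing notes, STAR 2.5.1, featureCounts of Subread 1.5.1, DESeq2 1.38.3 and mm10 were used. Strand use, handling of multi-mapped reads and the annotation were not given in the sources used here. Overlapping or antisense genes may share reads. Lines of 1 gene were summed by Entrez identifier (369 of 24059 genes had several).

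In R 4.3.3, edgeR 4.0.16 was used for a quasi-likelihood F-test on all 20 libraries with 4 group means, TMM scaling (factors 0.9609 to 1.04), filterByExpr (minimum count 10, minimum total 15; 14007 genes) and Benjamini-Hochberg adjustment within each contrast, threshold 0.05. The model was tested on simulated data. Log2 CPM used a prior count of 2, and standard errors are the size of a log2 change over the square root of F. The common biological coefficient of variation was 8.78%. Depth ran from 5854462 (replicate 1 of CardioGRKO at ZT0) to 37648421 counts. The table of that shallowest library also carries another identifying number than the other files, and what the number marks is not known. Libraries were not paired by replicate number in this model. Alternatives were DESeq2 1.42.0, other scaling, filters, thinning, fits on only the groups compared, a replicate block and leaving out each library. The text names all 10 genes and Nr3c1. For each of the 10 it names the 3 tested genes outside the 10 closest by correlation (mean log2 CPM of at least 1, provisional names passed over). It also names the 4 largest called changes of the wider list in each contrast. Ncoa1 and Hsd11b1 were named after their values were seen. The genes and lists were chosen with earlier results of these data known.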

Additional observations from a re-analysis of the deposited data

Results flagged for a closer look

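Zbtb16 differed between genotypes in its time effect by the test of the difference itself. The rise from ZT0 to ZT12 was smaller in CardioGRKO than in GRflox by 1.44 on the log2 scale (a difference of -1.44 ± 0.24, edgeR adjusted p = 0.00533), with all 5 CardioGRKO libraries of ZT12 below all 5 GRflox libraries of ZT12.

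Arrdc2 had 1 library far from the others of its group. In CardioGRKO at ZT0, replicate 2 held 2.57 CPM while the other 4 held 3.39 to 3.61 CPM, and the gap to its nearest neighbour was 0.79 of the group's range, above Dixon's critical value of 0.71. Of 40 combinations of gene and group looked at, this was the 1 that stood out, and chance alone gives about 1 in 20.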

How the results depend on the processing

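Of 50 results (10 genes in 5 contrasts), 37 kept their direction and call under every alternative run. The counts of genes called higher at ZT12 without 1 library stayed at 7 in GRflox and 6 in CardioGRKO, and thinning gave 5 in CardioGRKO. Genes called lower at ZT12 numbered 0 to 1 without 1 library in either genotype and 0 in GRflox with DESeq2, where Errfi1 had an adjusted p of 0.0555. Genes lower in CardioGRKO numbered 3 to 4 at ZT0 and 4 to 5 at ZT12 without 1 library, and 2 at ZT0 with thinning. A smaller rise in CardioGRKO was called for 1 to 2 genes without 1 library, the 2 being found without replicate 5 of GRflox at ZT0, and the pairs that covaried numbered 10 to 17. Signs turned in differences near 0 that had passed no test. The difference of time effects of Sgk1 was -0.0032 with DESeq2 and -0.10 to 0.092 without 1 library, that of Fkbp5 -0.25 with thinning and -0.13 to 0.31, that of Map3k6 -0.25 to 0.085 and that of Hif3a -0.31 to 0.049. The time difference of Ddit4 in CardioGRKO ran from -0.13 to 0.17 and the genotype difference of Tsc22d3 at ZT0 from -0.088 to 0.088. The cause was not tested, except that thinning leaves fewer reads.

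Over all genes, thinning gave 715 higher and 795 lower at ZT12 in GRflox, 372 and 382 in CardioGRKO (383 higher without replicate 3 of CardioGRKO at ZT0), 672 higher and 667 lower in CardioGRKO at ZT0, and 872 higher at ZT12. The difference of time effects was called for 27 more positive and 42 more negative genes with DESeq2, against 9 and 17, and for 4 or 5 more positive ones with thinning or without 1 of 8 libraries. In the wider list, genes lower at ZT12 in GRflox numbered 4 with only the groups compared, genes higher in CardioGRKO at ZT0 numbered 0 to 2 and those with a smaller rise 4 with DESeq2. No scaling moved the median of all genes by over 0.1 (log2).

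Replicate numbers are shared between groups, but same-numbered libraries showed no strong tendency to deviate together. Over their 30 pairs r ran from -0.272 to 0.234, with 8 over 0.1. The median r was 0.029, beside -0.0046 for pairs with other numbers. With the replicate block, Ddit4 passed at ZT12 (-0.60, edgeR adjusted p = 0.0465), so that 5 genes were lower there, and no other count of the 10 genes changed; 17 pairs covaried, and 14 genes of all had a more positive time effect. A fit of only the groups compared cannot give the difference of time effects, and gave Ddit4 an adjusted p of 0.0456 at ZT12. Depth limits Hif3a, with 1 to 13 counts per library in CardioGRKO at ZT0.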

Other observations

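Single libraries stood at the edge of their group for many of the 10 genes at once. In CardioGRKO at ZT12, replicate 3 was the lowest of its 5 libraries for 9 of the 10 genes, Sgk1 being the exception, and replicate 4 was the highest for 7. Replicate 3 there held 25091701 counts, 327 CPM summed over the immediate early genes and 98588.7 CPM summed over the cardiomyocyte markers, both between the lowest and highest of its group, and its sum over the endothelial markers, 1436 CPM, was the highest of its group. The part of these values in its position was not tested. In GRflox at ZT12 replicate 3 was the highest for 6 genes, Fkbp5, Map3k6 and Fam107a among them, and in CardioGRKO at ZT0 replicate 4 was the lowest for 6 and replicate 5 the highest for 5. In GRflox at ZT0 replicate 5, at the top of its group for 5 genes, held 17.6 CPM of Arrdc2 and 89.6 CPM of Ddit4. These libraries were looked at after their values were seen.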
